A study of Mus musculus with 8 samples.

Results

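Igf2bp1, Igf2bp2, Igf2bp3, Lin28a, Lin28b, Hmga1 and Hmga2 are genes of RNA-binding proteins and chromatin proteins known from embryonic tissue and from tumours, hence called oncofetal. They were taken by gene symbol from the count table of the study, where all 7 have a row among 56691 rows. Of the 7, 6 had at least 1 count and 5 had enough counts to be tested, among 13812 genes tested in all. The table holds bulk RNA sequencing of organoids grown from the glandular stomach (hindstomach) epithelium of mouse embryos at embryonic day 18.5. All cultures spent 5 days in growth medium and then 7 days in differentiation medium. The Ctrl group has the genotype Shh-Cre (4 libraries), and the YAP5SA group has the genotype Shh-Cre;YAP5SA (4 libraries). Every culture thus carries the Cre recombinase driven from Shh, a gene of embryonic gut epithelium. YAP5SA is a form of the Hippo pathway coactivator YAP in which serines that inhibitory kinases phosphorylate are mutated, so that it stays active. Whether replicate cultures came from different embryos is not in the labels. The p-values therefore reflect spread among these 8 samples, which may be technical.

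The IGF2BP proteins are cytoplasmic RNA-binding proteins that keep bound mRNAs from decay and are readers of N6-methyladenosine. The LIN28 proteins bind precursors of the let-7 microRNAs and block their maturation, and let-7 in turn represses the mRNAs of LIN28, IGF2BP and HMGA2 through sites in their 3′ untranslated regions. HMGA1 and HMGA2 are small AT-hook proteins that bind the minor groove of AT-rich DNA and help shape chromatin. Most of these genes are active in fetal tissues and fall silent or nearly so in adult epithelium.

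The sequence that links the 7 genes is the let-7 seed, bases 2 to 8 of the microRNA, shown here because the mRNA of each of them holds its complement. Of 11 distinct mature let-7 and miR-98 sequences in RefSeq (GRCm38.p6), 10 share one seed. Examples follow, 5′ to 3′, with the seed in capitals.
let-7a-5p: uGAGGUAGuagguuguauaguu
let-7g-5p: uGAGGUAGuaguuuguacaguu
miR-98-5p: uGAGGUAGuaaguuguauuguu
let-7j, with a different seed: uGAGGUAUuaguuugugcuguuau

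The complement of the shared seed in mRNA is CTACCTC, and a following A makes the stronger class of site. It was searched on the transcript strand in the longest annotated 3′ untranslated region of each gene (GENCODE M21, GRCm38). All 7 genes held at least 1 match, against 9.03% of 20998 protein-coding genes and 15.2% of the 10234 genes with longer regions (1000 bases or more). Igf2bp1, Lin28b and Hmga2 held 4 each, a number or more that 12 of the 20998 genes reach. Lin28a held 2, and Igf2bp2, Igf2bp3 and Hmga1 held 1 each. The density was 0.472 to 1.33 matches per kilobase in the 7 genes and 0.0700 over all regions. The list was chosen from genes of which several are textbook let-7 targets, so the density is a description of the list.

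One site per gene is printed as DNA of the mRNA strand, with the match in capitals.
Igf2bp1, chr11:95961777-95961799, minus strand: ctgtgcgaagtaaaCTACCTCAa
Igf2bp2, chr16:22059472-22059494, minus strand: cacacaaataaaagCTACCTCAg
Igf2bp3, chr6:49086786-49086808, minus strand: gcatttttactcaaCTACCTCAg
Lin28a, chr4:134005188-134005210, minus strand: cacagcctgttgaaCTACCTCAt
Lin28b, chr10:45381021-45381043, minus strand: cccgggcgggaagtCTACCTCAt
Hmga1, chr17:27563278-27563299, plus strand: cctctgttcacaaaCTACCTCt
Hmga2, chr10:120364223-120364245, minus strand: ccgacattcaatttCTACCTCAg
The Hmga1 match is the only one of these that is not followed by A. The matches nearest to a stop codon lay 36 bases after it in Lin28b and 58 bases after it in Hmga2. Those of Igf2bp1 lay 1715 to 5353 bases after the stop codon in a region of 6337 bases.

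**Figure D1:**
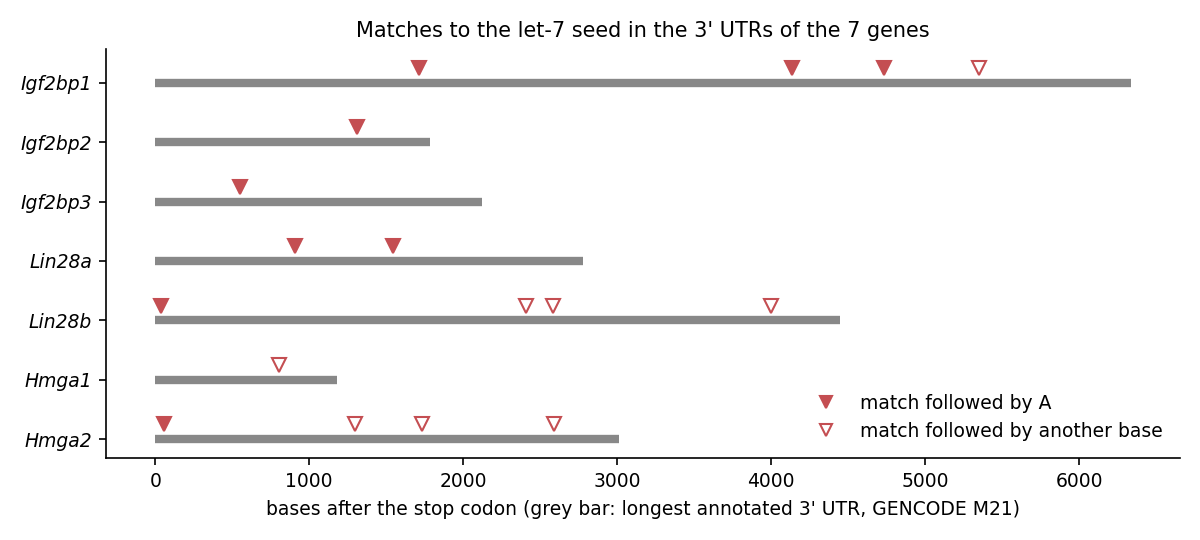
Positions of let-7 seed matches along the longest annotated 3′ untranslated region of each gene, in bases after the stop codon. Filled triangles are matches followed by A and open triangles are other matches; Igf2bp1, Lin28b and Hmga2 hold 4 each and Igf2bp2, Igf2bp3 and Hmga1 hold 1 each.

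Facts of the whole table bear on each value that follows. Total counts were 17387372 to 25841256 per library, and correlations of log2 CPM (counts scaled to a common library depth) were 0.982 to 0.991 within groups and 0.875 to 0.899 between them. By edgeR's quasi-likelihood test (adjusted p under 0.05), 64.5% of the 13812 tested genes were called, 33.1% as higher and 31.3% as lower in YAP5SA. The groups also differ in sex-linked transcripts. Xist had 8436 to 12237 counts in Ctrl libraries and 0 to 8 in YAP5SA libraries, and 4 Y-linked genes had 880 to 3854 counts in YAP5SA libraries and 0 in Ctrl libraries. By these transcripts the Ctrl libraries are female and the YAP5SA libraries male. Genotype and sex therefore cannot be told apart for any gene in the table, the members included. The Yap1 row was at 118 ± 11 CPM in Ctrl, and at 139.8 ± 2.22 CPM in YAP5SA (SD, n = 4 libraries, as for every later mean with ±). All YAP5SA libraries lay above all Ctrl libraries. Whether transgene reads fall in this row is not known. In bulk RNA, more cells that express a gene and more RNA per cell cannot be told apart.

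All 5 tested members were higher in YAP5SA, where 33.1% of all genes tested were higher. The 4 YAP5SA libraries lay above the 4 Ctrl libraries for each of the 5, as they did for 30.4% of all genes tested (58.7% did not overlap in either direction). The sizes differed widely. Igf2bp1 rose about 24-fold from near absence, while Hmga1, Igf2bp3 and Hmga2 rose by a factor of 1.59 to 1.66 and Igf2bp2 by a factor of 1.17. Lin28b stayed at a few counts per library and Lin28a had none.

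**Figure D2:**
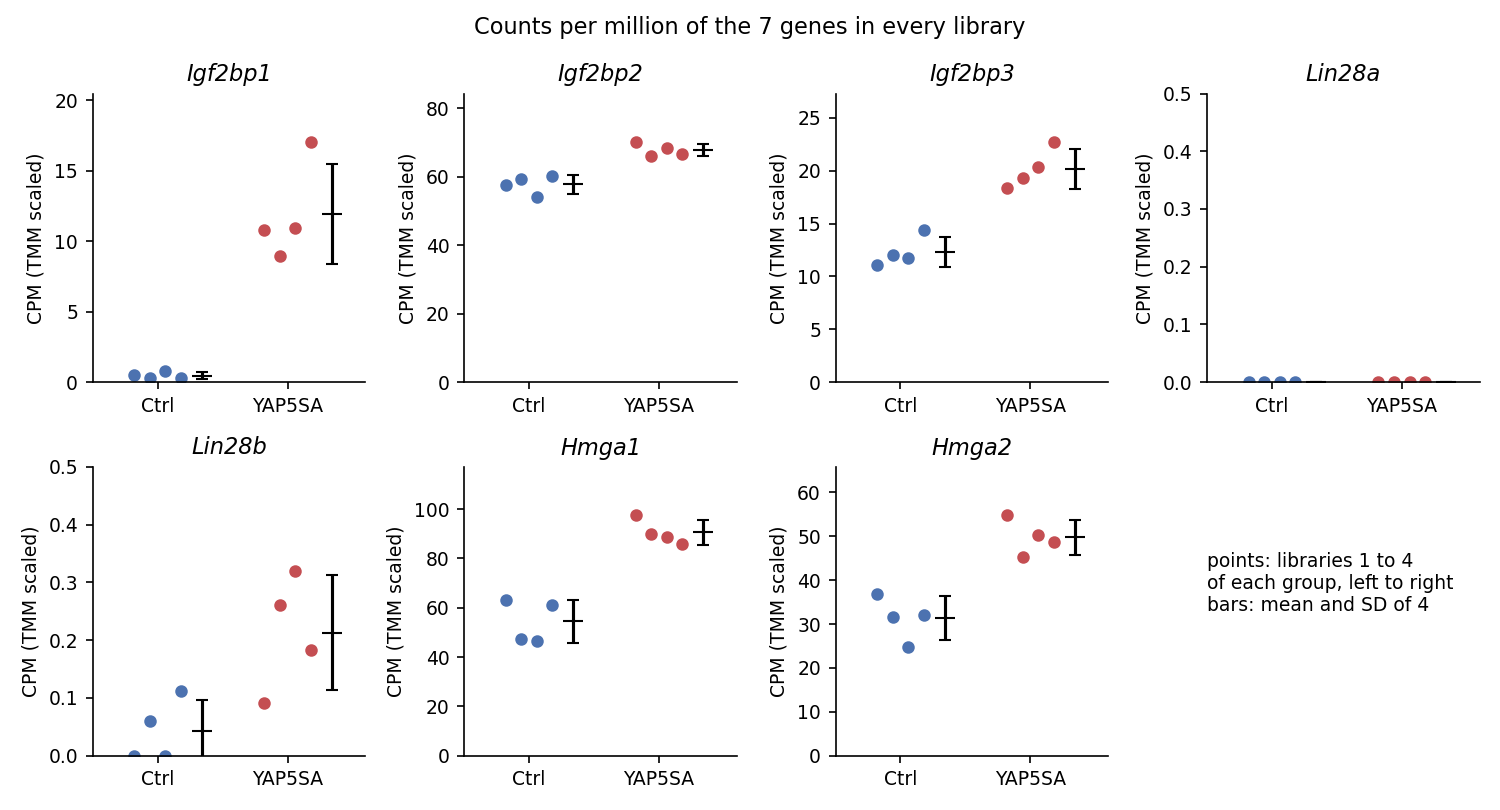
TMM-scaled CPM of the 7 genes, with points for libraries 1 to 4 of each group from left to right and bars for the mean and SD of 4 libraries. The groups are apart for Igf2bp1, Igf2bp2, Igf2bp3, Hmga1 and Hmga2; Lin28a is at 0 in all 8 libraries and Lin28b is below 0.32 CPM in each.

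Igf2bp1 (ENSMUSG00000013415, chr11:95957163-96005940, minus strand, GRCm38) encodes IGF2BP1, also called ZBP1, which carries and stabilises mRNAs such as those of Actb and Myc in embryonic cells. It had 9, 5, 19 and 5 counts in Ctrl replicates 1 to 4. In YAP5SA replicates 1 to 4 it had 237, 172, 205 and 374 counts. As CPM these were 0.508, 0.296, 0.792 and 0.279 in Ctrl, and 10.8, 8.95, 10.9 and 17.1 in YAP5SA. The lowest YAP5SA library was thus far above the highest Ctrl library, and YAP5SA replicate 4 was the highest of its group. The log2 fold change was 4.59 (SE 0.31, edgeR adjusted p = 1.7e-08). Among the genes tested 159 (1.15%) had a higher log2 fold change. Totals of 38 and 988 counts give a ratio of 24.3 with a 95% interval of 17.6 to 34.5 for counting error only.

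Igf2bp3 (ENSMUSG00000029814, chr6:49085223-49214957, minus strand) encodes the paralogue most often described as re-expressed in carcinomas. Ctrl replicates 1 to 4 had 11.1, 12.0, 11.7 and 14.4 CPM. The YAP5SA replicates had 18.4, 19.3, 20.4 and 22.8 CPM. No libraries of the groups overlapped, and replicate 4 was the highest in both groups. The log2 fold change was 0.72 (SE 0.12, edgeR adjusted p = 0.000102). Its gene body overlaps Malsu1, a mitochondrial ribosome assembly factor gene on the opposite strand, and the strand setting of the counting is not given. Malsu1 went from 10.5 ± 1.75 to 17.9 ± 3.56 CPM (0.76 on the log2 scale, SE 0.16, edgeR adjusted p = 0.000723). Reads from the overlap cannot be assigned with certainty, and their part in the Igf2bp3 value was not tested.

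Igf2bp2 (ENSMUSG00000033581, chr16:22059009-22163299, minus strand) encodes the paralogue that stays on in many adult tissues and is linked to metabolism. It was the steadiest of the members, with 57.5, 59.4, 54.0 and 60.2 CPM in Ctrl replicates 1 to 4. The YAP5SA replicates had 70.3, 66.1, 68.3 and 66.6 CPM. The groups did not overlap, yet the highest Ctrl and lowest YAP5SA libraries were only 60.2 and 66.1 CPM. The log2 fold change was 0.23 (SE 0.07, edgeR adjusted p = 0.0103), at percentile 61.1 of all genes tested. Without Ctrl replicate 3, the lowest library, it was 0.18 and not called (adjusted p = 0.0654).

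Per kilobase of exon, Igf2bp2 gave most of the family's RNA in both groups. Its share of the summed CPM per kilobase of the 3 genes was 83.4% ± 1.23 in Ctrl and 71.3% ± 3.34 in YAP5SA (SD, n = 4 each), and every YAP5SA library was below every Ctrl library. Igf2bp1 held 0.528% ± 0.295 in Ctrl and 9.50% ± 2.40 in YAP5SA. It reached 8.65%, 7.57%, 8.78% and 13.0% in YAP5SA replicates 1 to 4, against at most 0.928% in a Ctrl library. The Igf2bp3 share was 16.1% ± 1.26 in Ctrl and 19.2% ± 1.26 in YAP5SA, and the groups overlapped. The summed level of the family was 9.36 ± 0.468 CPM per kilobase in Ctrl and 12.9 ± 0.546 in YAP5SA, a ratio of 1.37. These shares are given as a description, with no test.

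**Figure D3:**
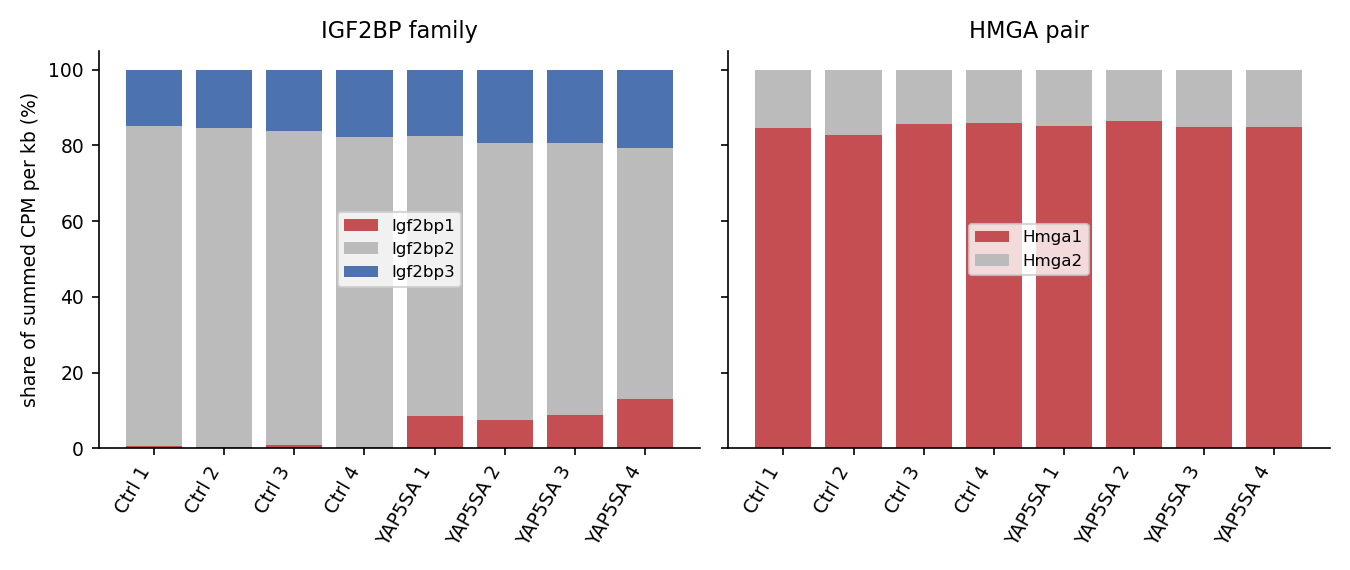
Share of the summed CPM per kilobase held by each IGF2BP gene (left) and by each HMGA gene (right) in every library. Igf2bp1 is visible as a band of 7.57% to 13.0% in the 4 YAP5SA libraries and is below 1% in Ctrl, while the HMGA shares of the groups overlap.

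Lin28a (ENSMUSG00000050966, chr4:134003330-134018841, minus strand), the LIN28 protein of pluripotent and early embryonic cells, had 0 counts in all 8 libraries. In these libraries 3 counts amount to 0.125 to 0.178 CPM, so a level under that could leave a single library without a count. Lin28b (ENSMUSG00000063804, chr10:45376620-45486395, minus strand), its paralogue in later fetal tissue and tumours, had 0, 1, 0 and 2 counts in Ctrl replicates 1 to 4. The YAP5SA replicates had 2, 5, 6 and 4 counts. Ctrl replicate 4 and YAP5SA replicate 1 both had 2 counts, which are 0.112 and 0.0908 CPM, so that the groups overlap in CPM. Lin28b lay under the filter of the test. The totals of 3 and 17 counts give a ratio of 5.29 per scaled depth, with a 95% interval of 1.53 to 28.2 for counting error only. In CPM the means were 0.0427 ± 0.0538 in Ctrl and 0.213 ± 0.0991 in YAP5SA.

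Hmga1 (ENSMUSG00000046711, chr17:27556497-27563674, plus strand) was the most abundant member per kilobase of exon in both groups. In CPM it was the highest member in YAP5SA, while in Ctrl its mean of 54.6 CPM lay below the 57.8 CPM of Igf2bp2. Ctrl replicates 1 to 4 had 63.2, 47.4, 46.7 and 60.9 CPM. The YAP5SA replicates had 97.6, 89.9, 88.8 and 86.0 CPM. The Ctrl libraries fell into a higher and a lower pair, and all were below the YAP5SA libraries. The log2 fold change was 0.73 (SE 0.10, edgeR adjusted p = 2.66e-05).

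Hmga2 (ENSMUSG00000056758, chr10:120361275-120476469, minus strand), the paralogue whose loss gives the small pygmy mouse, had 36.8, 31.7, 24.7 and 32.1 CPM in Ctrl replicates 1 to 4. The YAP5SA replicates had 54.8, 45.2, 50.3 and 48.8 CPM. Replicate 1 was the highest of each group and no libraries of the groups overlapped. The log2 fold change was 0.67 (SE 0.11, edgeR adjusted p = 0.000131). Per kilobase of exon Hmga1 held 84.7% ± 1.48 of the pair's summed level in Ctrl and 85.3% ± 0.718 in YAP5SA, with overlapping groups.

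Both HMGA genes have a near copy with a row of its own, and reads can be shared between copy and parent. Hmga1b (chr11:120762794-120764419) is a coding copy on another chromosome: of the 150-base windows of its longest transcript, 69.5% occur unchanged in an Hmga1 transcript. Its row went from 8.29 ± 0.689 to 13.4 ± 1.01 CPM (0.69 on the log2 scale, SE 0.12, edgeR adjusted p = 0.000202). Hmga2-ps1 is a transcribed pseudogene of Hmga2 on chromosome 1. Its row went from 13.3 ± 1.88 to 17.6 ± 1.48 CPM (0.40 on the log2 scale, SE 0.12, edgeR adjusted p = 0.00992). There were 31.7 to 54.6 counts in the pseudogene's row per 100 in that of Hmga2 in Ctrl libraries, and 31.2 to 39.4 in YAP5SA libraries. With each copy summed with its parent, a fit added after the data were seen, the log2 fold changes were 0.73 for Hmga1 and 0.60 for Hmga2, both called. Other rows overlap the members on the opposite strand. AI413582, which overlaps Hmga1, was at 6.24 ± 0.473 and 7.92 ± 0.795 CPM. Gm49774, an antisense row over Hmga1, was at 0.423 ± 0.354 and 0.904 ± 0.233 CPM (1.07 on the log2 scale, SE 0.50, edgeR adjusted p = 0.0759, not called). The antisense rows over Igf2bp1 and Hmga2 had at most 2 counts in a library.

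**Figure D4:**
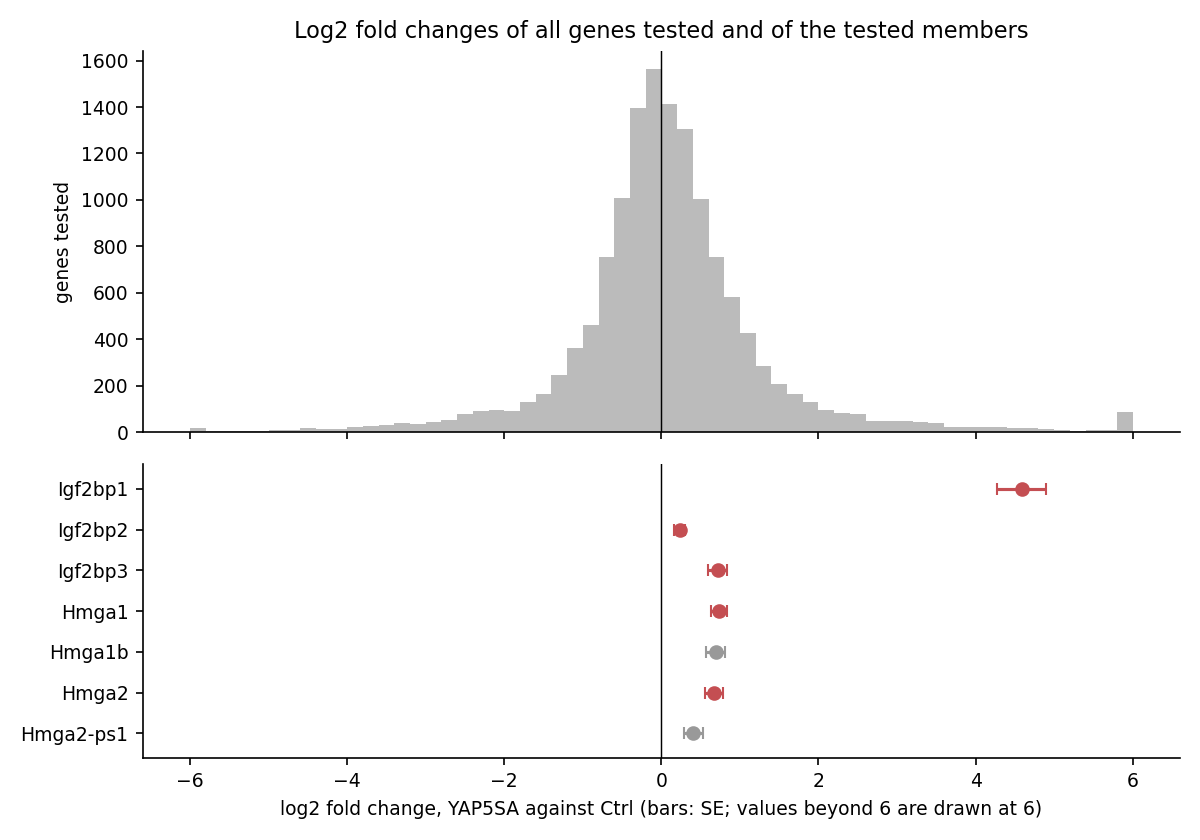
Top, log2 fold changes (YAP5SA against Ctrl) of all 13812 genes tested; bottom, the 5 tested members (red) and the 2 copies (grey) with their SE. Igf2bp1 lies at 4.59, in the far right tail, and the other members lie between 0.23 and 0.73.

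Levels differed widely between members. In order of CPM per kilobase of exon, Ctrl gave Hmga1 (25.7 ± 4.12), Igf2bp2 (7.81 ± 0.367), Hmga2 (4.62 ± 0.733), Igf2bp3 (1.51 ± 0.174) and Igf2bp1 (0.0484 ± 0.0247). The YAP5SA order was the same, with 42.6 ± 2.33, 9.16 ± 0.254, 7.35 ± 0.588, 2.48 ± 0.231 and 1.23 ± 0.365. Among 13347 tested genes with a known length, Igf2bp1 moved from percentile 1.87 to percentile 23.8 and Hmga1 from percentile 85.4 to percentile 91.1. Neighbours in the order did not overlap, except Igf2bp2 and Hmga2 in YAP5SA when the longest transcript was taken as the length (13.3 to 14.2 and 11.9 to 14.4 CPM per kilobase). Relative spread between libraries was largest for Igf2bp1, with a coefficient of variation of 51.0% in Ctrl and 29.7% in YAP5SA, and smallest for Igf2bp2, with 4.71% and 2.77%.

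Genes with the most similar profile over the 8 libraries were sought by the root mean square difference of centred log2 CPM. For Igf2bp1 they were Cpvl, a carboxypeptidase gene (difference 0.34), Pcolce, a procollagen C-proteinase enhancer gene (0.35), and Flrt2, an adhesion and guidance protein gene (0.36), with log2 fold changes of 4.34, 4.33 and 4.46. For Hmga1 they were Golim4, Styx and Ctsl, at differences of 0.05 to 0.08. For Hmga2 they included Cdca8, which acts in mitosis, at 0.08, and Pds5b, which acts in cohesin release, at 0.10. For Igf2bp3 they were Map1lc3a, Pip5k1a and Cdv3, and for Igf2bp2 they were Abraxas2, Fhip2a and Zswim6. With 2 groups of 4 libraries, such likeness rests mainly on the size of the group difference.

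Genes that make, load or degrade let-7 went in both directions. Over all genes tested, 33.1% rose and 31.3% fell, with a median log2 fold change of 0.02. Among 18 tested genes of this list, 4 rose, 8 fell and 6 missed the threshold, with a median of -0.14. Library size scaling gave 6 higher and 6 lower and a median of 0.04. The nuclear processor genes Drosha and Dgcr8 were lower, at -0.50 (SE 0.12) and -0.67 (SE 0.11), as was Dicer1 at -0.42 (SE 0.09). Tut7, a terminal uridylyl transferase that can act with LIN28 on the let-7 precursor, fell from 147 ± 8.98 to 92.6 ± 7.36 CPM (-0.67, SE 0.08). The silencing scaffold gene Tnrc6b was at -0.80 (SE 0.11). Higher were Hnrnpa1 (1.52, SE 0.10), whose protein can bind let-7 precursors, Prkra (0.75, SE 0.12), Khsrp (0.33, SE 0.10) and Dis3l2 (0.48, SE 0.11), the nuclease that degrades uridylated let-7 precursors. Trim71, a let-7 target and stem cell factor, had 2 counts in Ctrl and 0 in YAP5SA.

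Mature let-7 was not measured in these libraries. Of the 12 let-7 and miR-98 precursor rows, 11 were at 0 in every library and Mirlet7c-1 had 1 count. Among longer host transcripts, Mir100hg, which hosts let-7a-2, had 50 counts in Ctrl and went from 0.678 ± 0.751 to 5.13 ± 0.313 CPM (2.94 on the log2 scale, SE 0.46, edgeR adjusted p = 6.62e-05). Without Ctrl replicate 2 its log2 fold change was 3.91. Mir99ahg, which hosts let-7c-1, was at 1.99 ± 0.286 and 1.31 ± 0.399 CPM (-0.60, adjusted p = 0.0769), and was called without YAP5SA replicate 3 (-0.81, adjusted p = 0.0307). Wdr82, the host gene of let-7g, was at 0.19 (adjusted p = 0.0351), and its call ended in 9 of 16 alternatives. Huwe1, which hosts let-7f-2 and miR-98, was at 0.08 (adjusted p = 0.37).

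Other let-7 targets went in both directions. Among 28 tested targets, 7 rose, 13 fell and 8 missed the threshold, with a median of -0.18 (all genes: 33.1% higher, 31.3% lower). Scaling by library size alone gave 11 higher and a median of -0.01, and moved the median of all genes to 0.19. The matrix glycoprotein gene Thbs1 (3.53, SE 0.09), the growth factor receptor gene Igf1r (1.53, SE 0.09), the zinc finger gene Plagl1 (1.62, SE 0.13) and the cell cycle factor gene E2f5 (19.4 ± 1.98 to 38.8 ± 3.32 CPM) were higher. The activin-type receptor gene Acvr1c (-4.56, SE 0.31), the transcription factor gene Mycn (-2.17, SE 0.24) and the phosphatase gene Cdc25a (-1.12, SE 0.11) were lower. Genes grouped by their seed matches, with the members left out, also went in both directions. Of 10612 tested genes with no seed match 34.2% were higher and 32.5% lower, and of 1104 with 1 match 30.7% were higher and 36.9% lower. Of 138 with 2 matches 26.1% were higher and 42.0% lower, and of 18 with 3 or more 3 were higher and 7 lower. The median log2 fold changes of these classes were 0.01, -0.06, -0.14 and 0.13. From no match to 2 matches the median and the share of higher genes fell, and the share of lower genes rose. In the class of 18 genes with 3 or more matches, 16.7% were higher and 38.9% lower, while the median was positive. The last include, chosen after their values were seen, Trim6 at -1.32 (SE 0.24) and Mcf2l at -1.53 (SE 0.16), and Zc3hav1l at 1.25 (SE 0.23). These classes also differ in the median length of the region, from 1066 bases with no match to 4038 bases with 3 or more, and no test was made of them.

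Clients and partners of the IGF2BP proteins went in both directions. Of 13 tested mRNAs described as bound by them, 5 rose, 5 fell and 3 missed the threshold (median -0.15). Over all genes tested, 33.1% rose and 31.3% fell. The hyaluronan receptor gene Cd44 went from 50.3 ± 7.48 to 219 ± 13.2 CPM (2.12, SE 0.10) and Ccnd3 was at 0.57 (SE 0.07). Actb, the classic client of IGF2BP1, fell from 2031 ± 110 to 1137 ± 101 CPM (-0.84, SE 0.08), and Ctnnb1 fell from 2033 ± 166 to 1169 ± 104 CPM (-0.80, SE 0.09). Igf2, which gave the family its name, had 8 counts over the Ctrl libraries and lay under the filter. Counts of higher mRNAs in this list fell to 2 or 3 without Ctrl replicate 1, 2 or 3, without YAP5SA replicate 1, 2 or 3, and with no filter. The Btrc call ended in 12 of 16 alternatives. Of 10 protein partners, 2 were higher and 4 lower, with Matr3 at 0.85 (SE 0.08), Dhx9 at -0.68 (SE 0.13), Stau1 at -0.40 (SE 0.07) and Syncrip at -0.23 (SE 0.08). The count of higher partners was 1 with no filter, with the replicate block, without any 1 Ctrl replicate other than 1 and without YAP5SA replicate 1, 2 or 4. Library size scaling gave 2 lower, and the Syncrip call ended with it (-0.06, adjusted p = 0.527).

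The enzymes and other readers of N6-methyladenosine were lower or not called. By edgeR 33.1% of all genes tested rose and 31.3% fell. In this list 0 of 16 tested genes rose, 5 fell and 11 missed the threshold (median -0.17). At an unadjusted p under 0.05, 0 had a positive change, and DESeq2 and limma-voom also called 0 higher. Library size scaling gave 1 higher and 3 lower. The helicase reader gene Ythdc2 fell from 50.3 ± 5.33 to 21.3 ± 1.16 CPM (-1.24, SE 0.10), and Ythdf2, whose protein speeds decay of methylated mRNA, was at -0.54 (SE 0.08). The writer complex genes Wtap and Rbm15b were at -0.32 (SE 0.07) and -0.43 (SE 0.10), and the Wtap call ended with library size scaling.

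Genes of other HMG-type chromatin proteins, listed with the linker histone gene H1f0, were more often higher than lower. Among 13 tested genes, 8 rose, 2 fell and 3, among them H1f0, missed the threshold, with a median of 0.66. Over all genes tested, 33.1% rose and 31.3% fell. Hmgxb4 went from 21.7 ± 3.95 to 90.05 ± 6.75 CPM (2.06, SE 0.12). Hmgb2, abundant in dividing cells, was at 1.10 (SE 0.08), the nucleosome-binding genes Hmgn3 and Hmgn1 at 0.90 (SE 0.10) and 0.75 (SE 0.08), and Hmgb1 at 0.37 (SE 0.07). Hmgn5 was lower at -0.47 (SE 0.11), as was Hmgn2 at -0.26 (SE 0.10), a call that ended with library size scaling, with no filter, without Ctrl replicate 1 or 3 and without YAP5SA replicate 1, 2 or 3. The list includes Hmga1b, which shares sequence with Hmga1. Of 7 tested genes linked to HMGA proteins as targets, 4 were higher and 1 lower. The higher ones were E2f1 (2.10, SE 0.12), Ccnb2 (1.26, SE 0.24), Ccna2 (1.22, SE 0.19) and Cdkn2a (1.15, SE 0.10), genes of the cell cycle and its arrest. Ercc1, a DNA repair gene, was at -0.53 (SE 0.12). The mesenchymal factor genes Snai1, Snai2 and Twist1 in this list lay under the filter.

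Other genes called oncofetal included larger changes than those of most members. Among 10 tested genes, 7 rose and 3 fell, with a median of 1.65, where 33.1% of all genes tested rose and 31.3% fell. Gpc3, a glypican of fetal liver and liver tumours, had 4 counts over the Ctrl libraries and 23.4 ± 3.81 CPM in YAP5SA (8.64, SE 0.30). The transcription factor gene Sox11 went from 0.625 ± 0.362 to 20.3 ± 1.33 CPM (4.94, SE 0.25). The imprinted gene Peg3 was at 2.52 (SE 0.19), the claudin gene Cldn6 at 2.93 (SE 0.36), Plag1 at 1.68 (SE 0.20) and Tpbg at 1.42 (SE 0.18). Lower were Mycn, Afp (-1.88, SE 0.25), the fetal serum protein gene, and H19 (-1.43, SE 0.44), the imprinted noncoding RNA. H19 went from 10.1 ± 6.96 to 3.77 ± 1.89 CPM and its groups overlapped, while those of Mycn and Afp did not. High values were thus not shared by all fetal genes. Sall4 and Dlk1 lay under the filter.

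**Figure D5:**
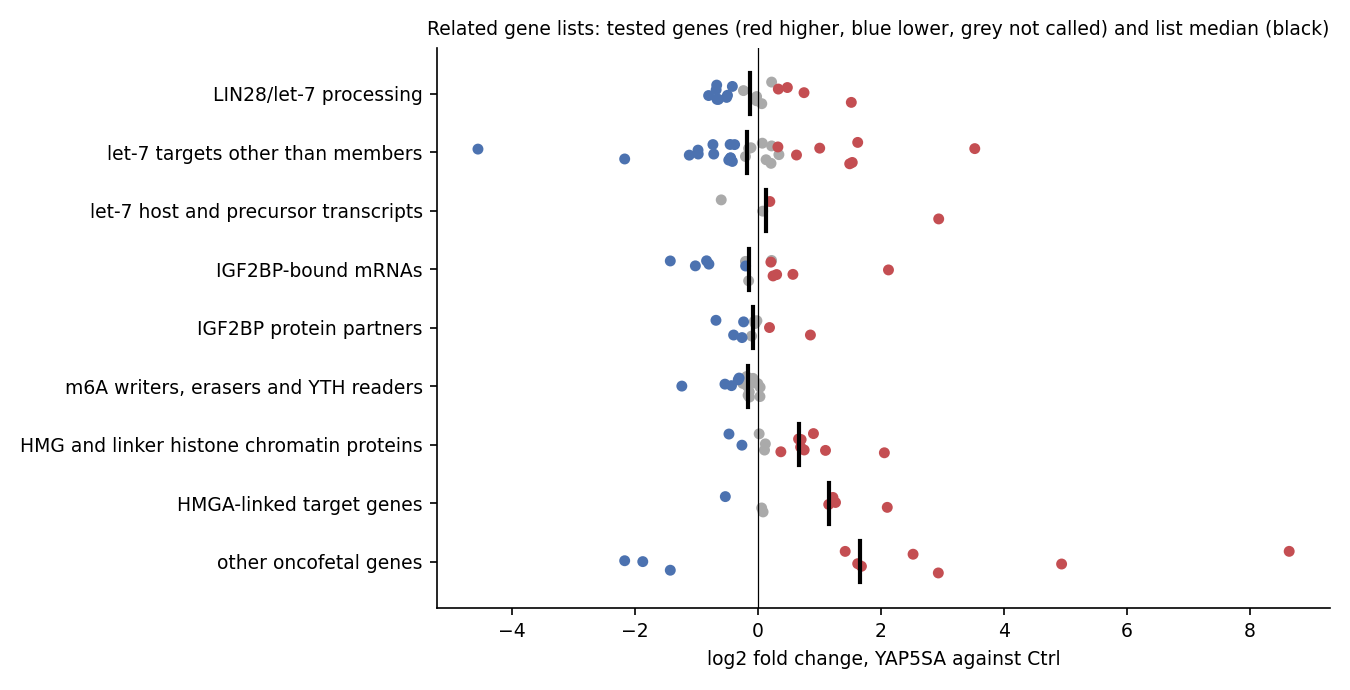
Log2 fold changes (YAP5SA against Ctrl) of the tested genes in 9 related lists, with the list median as a black bar. Medians lie between -0.18 and 0.13 for the let-7, IGF2BP and N6-methyladenosine lists and higher for HMG proteins (0.66), HMGA-linked genes and other oncofetal genes (1.65).

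Markers of cells other than epithelium were examined because IGF2BP, LIN28B and HMGA2 are also made in fetal mesenchyme. None of 15 mesenchyme markers passed the filter of the test, and Col1a2, Twist2, Lum, Barx1 and Postn were at 0 in all libraries. The summed level of the 15 was 0.391 to 0.792 CPM in Ctrl libraries and 1.68 to 2.19 CPM in YAP5SA libraries, with no overlap. Single markers went in both directions at low counts. In total counts Myh11 went from 5 in Ctrl to 54 in YAP5SA and Pdgfra from 8 to 36. Col1a1 went from 9 to 4 and Des from 14 to 9. The part of mesenchymal cells in the values of the members was not tested. None of 10 pluripotency and germ cell markers passed the filter, and Pou5f1, Zfp42, Utf1 and Tdgf1 were at 0. Their sum was 0.168 to 0.625 CPM in Ctrl and 0.312 to 1.18 CPM in YAP5SA. The sum of 7 endothelial markers was 0.670 to 1.81 CPM in Ctrl and 0.213 to 0.730 CPM in YAP5SA. The sum of 8 immune markers was 8.74 to 18.2 CPM in Ctrl and 68.1 to 74.3 CPM in YAP5SA, with Csf1r (6.59, SE 0.18), Cd68 (1.63, SE 0.21) and Lyz2 (4.26, SE 0.64, and 5.21 without Ctrl replicate 1) higher. Ptprc, the marker of all leukocytes, was at 0.194 ± 0.104 CPM in Ctrl and 0.0377 ± 0.0254 in YAP5SA, and Adgre1 was at 0. The sum of 7 neural and glial markers was 4.92 to 6.15 CPM in Ctrl and 2.18 to 3.33 CPM in YAP5SA, with Ret and Tubb3 lower. S100b, the other neural marker tested, was at 0.42 and not called (edgeR adjusted p = 0.516), and at 1.07 without Ctrl replicate 1. The 10 epithelial markers were all tested and summed to 15888 to 17394 CPM in Ctrl and 9701 to 11398 CPM in YAP5SA. Of these 4 rose, 5 fell and 1, Krt18, was not called. The keratin genes Krt8 and Krt19 were at -1.17 (SE 0.10) and -1.03 (SE 0.07), the cadherin gene Cdh1 at -0.78 (SE 0.08), and the epithelial regulators Esrp1 and Grhl2 at -0.70 (SE 0.09) and -0.34 (SE 0.09). The claudin genes Cldn3, Cldn4 and Cldn7 were at 4.03 (SE 0.17), 1.08 (SE 0.07) and 0.36 (SE 0.10), and Epcam went from 296.5 ± 26.4 to 591.9 ± 24.0 CPM. The labelled epithelium thus showed its markers in every library.

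The promoters of 6 of the 7 members, from 250 bases before to 50 after the start site, are in the RefSeq table (GRCm38.p6). That of Igf2bp1 was not analysed here. None of the 6 held GGAATG, the motif of TEAD factors through which YAP binds DNA, on either strand, a motif present in 14.7% of 32851 promoters. None of the 6 held the AP-1 motif TGANTCA, present in 7.81%. The E-box CACGTG, present in 7.15% of promoters, occurred in 2 places in the Igf2bp3 promoter and in 1 place in that of Lin28b. A match or its absence in so short a window says nothing of the binding of a factor.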

How the data were processed

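RNA of 8 organoid cultures was sequenced as paired ends on an Illumina NovaSeq, per the labels' protocols. The deposited values are integer read counts for each gene. The submitters' processing notes list HTSeq 0.6.1, HISAT2 2.0.1, cutadapt and build mm9. Which annotation and strand setting were used is not given in the sources used here. Coordinates, lengths and sites come from GENCODE M21 (GRCm38) by symbol and are not the build of the counting.

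Groups and replicate numbers came from the sample titles. The test was edgeR 4.0.16 (R 4.3.3) on the counts: filterByExpr (minimum count 10, minimum total 15), TMM scaling and the two-sided quasi-likelihood test, adjusted by Benjamini-Hochberg over 13812 genes, threshold 0.05. SE was taken as the size of the log2 fold change over the root of F. CPM are TMM scaled. Between replicates of a group, chi-square per degree of freedom was 4.69 to 34.9, so no library was a repeat. The procedure was tested on simulated data in which few genes changed, unlike these data, where 64.5% of the genes tested were called.

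The members and lists were chosen with earlier results of these data known. Named genes are the members, up to 4 tested genes of each list with the smallest p (3 for cell markers), the 3 most similar profiles of each called member (leaving out members, sex-linked genes and genes without a plain symbol) and copies of members; other list genes named were chosen after their values were seen. One gene that the rule names is not reported here. Intervals and limits cover counting error only, as reads carry no molecular identifiers. Alternatives were RLE or library size scaling, DESeq2 1.42.0, limma-voom (limma 3.58.1), other filters, a replicate block, leaving out each library, another gene length and, added later, copies summed.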

Additional observations from a re-analysis of the deposited data

How the results depend on the processing

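The 5 tested members were higher in YAP5SA under all 16 alternatives, and all were called in each except Igf2bp2 without Ctrl replicate 3 (0.18, adjusted p = 0.0654). Leaving out 1 library at a time, the log2 fold change of Igf2bp2 was 0.18 to 0.24. Log2 fold changes ranged from 4.36 to 5.00 for Igf2bp1, from 0.18 to 0.41 for Igf2bp2, from 0.64 to 0.89 for Igf2bp3, from 0.65 to 0.90 for Hmga1 and from 0.55 to 0.84 for Hmga2. The highest values of the last 4 came from library size scaling, which moved the median of all genes to 0.19 and the calls over all genes to 5742 higher and 3201 lower. With the longest transcript as gene length, the mean shares became 80.2% for Igf2bp2 in Ctrl and 19.4% and 23.5% for Igf2bp3 in Ctrl and YAP5SA. Those of Hmga1 became 76.8% and 77.6%, and those of Hmga2 23.2% and 22.4%. With the replicate number as a block 5 members and 9174 genes were called, and Igf2bp2 was at 0.23 (adjusted p = 0.0151). The numbers share no stated origin: correlations of deviations between libraries of equal number were 0.05 to 0.28, and 2 of 4 Ctrl libraries correlated best with their own number. Depth limits what can be said of Lin28a and Lin28b, and of the size of the Igf2bp1 fold, which rests on 38 counts in Ctrl.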
